A study of Caenorhabditis elegans with 12 samples.

Results

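The data described here compare worms fed RNAi against dve-1 with worms fed the empty vector, both under the mitochondrial stress that RNAi of atp-2 causes. The members are the genes of the deposited table whose mean level over its 6 columns was at least 1 FPKM (fragments for each kilobase of a transcript, relative to the total mapped). They number 13337 of 46245 genes, and 12547 of them code for protein and have 300 nt or more of annotated exon. At the border of this rule, C14C10.9 with a mean of 1.00007 FPKM lay inside and F38E11.6 with a mean of 0.999564 lay outside.

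Whole worms of Caenorhabditis elegans were used, all carrying glp-4(bn2), a mutation that restricts germ line growth depending on temperature, and taken on day 1 of adulthood after culture at 20 °C. The study's text calls the control worms of this experiment wild-type. Its methods for the sequenced mRNA name neither glp-4 nor the day of adulthood, and this was not settled here. The group dve-1+atp-2 RNAi received bacteria with a clone against dve-1 and, per the labels, bacteria with a clone against atp-2 that were added 30 h later, although the study's methods give another delay before atp-2 RNAi and which one applied is not settled. The group L4440+atp-2 RNAi received the empty vector L4440 in place of the dve-1 clone and the same atp-2 bacteria. The groups dve-1 RNAi and L4440 RNAi were their counterparts without atp-2 RNAi, and the mutation was shared by all. Each group had 2 libraries, 4 of the 12 in the series for each pair of groups, and the table holds 1 pooled value per group. There is thus no spread between replicates, no difference was tested, and every value is the authors' value for the pool. Since RNA came from whole worms, fewer cells of a type and less RNA per cell cannot be told apart.

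The mitochondrial unfolded protein response (UPRmt) raises nuclear genes whose products fold, degrade or import proteins of mitochondria when mitochondria are impaired. DVE-1 is a homeodomain protein that enters intestinal nuclei during this response and, with the ubiquitin-like protein UBL-5, takes part in inducing its genes, while ATFS-1 is the transcription factor that senses failing import. atp-2 encodes the beta chain of the ATP synthase of mitochondria. The comparison asks which mRNAs of stressed worms depend on dve-1.

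FPKM summed to between 917209 and 980796 per column, with 16707 to 18262 genes above 0. By the steps between low values, 5 FPKM on a gene of 1 kb stood for 92.8 fragments with dve-1+atp-2 RNAi and for 88.5 with L4440+atp-2 RNAi, a counting error of 10.4% and 10.6%. The RNAi targets came first. dve-1 (WBGene00022861, chromosome X, 427035 to 433812 of the ce11 genome, reverse strand) was at 14.3 FPKM with dve-1+atp-2 RNAi, against 19.6 with L4440+atp-2 RNAi, so that 73.1% of the control level was listed. Without atp-2 RNAi it was at 11.11 FPKM with dve-1 RNAi, against 25.4 with L4440 RNAi, or 43.8%. The signal of the targeted gene was thus lower in both pairs, by less in the stressed pair. atp-2 (WBGene00000229, chromosome III, 5228417 to 5230536) was at 423 FPKM with dve-1+atp-2 RNAi, against 598 with L4440+atp-2 RNAi, and at 1090 with dve-1 RNAi, against 1094 with L4440 RNAi. The stress clone therefore left less atp-2 signal in the dve-1 column than in its control, and the part of this in the results below was not tested.

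Calls required that the ratio of FPKM + 1 was at least 2-fold and that the level was at least 5 FPKM in the higher column. With dve-1+atp-2 RNAi, 641 genes were called higher, 4.81% of those kept, and 319 were called lower, 2.39%. Of the higher genes 41 are sperm markers, a list whose summed level was 1770 FPKM with dve-1+atp-2 RNAi, against 688 with L4440+atp-2 RNAi, and its part in the other results was not tested. Among protein-coding genes with 300 nt of exon or more the counts were 550 and 269. Ratios of 4-fold or more made up 231 of the higher and 89 of the lower calls, and ratios of 16-fold or more made up 47 and 8. Genes called higher took 4.85% of all FPKM with dve-1+atp-2 RNAi, against 1.18% with L4440+atp-2 RNAi. Genes called lower took 1.26% with dve-1+atp-2 RNAi, against 3.70% with L4440+atp-2 RNAi. Of the higher genes 43 were listed at 0 in the L4440+atp-2 column, and of the lower genes 30 were listed at 0 in the dve-1+atp-2 column. For such genes no fold is given. Over all kept genes the median log2 ratio was 0.12, and it was 0.22 for dve-1 over L4440 RNAi without atp-2 RNAi. List medians below are stated relative to the median of the same comparison.

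**Figure D1:**
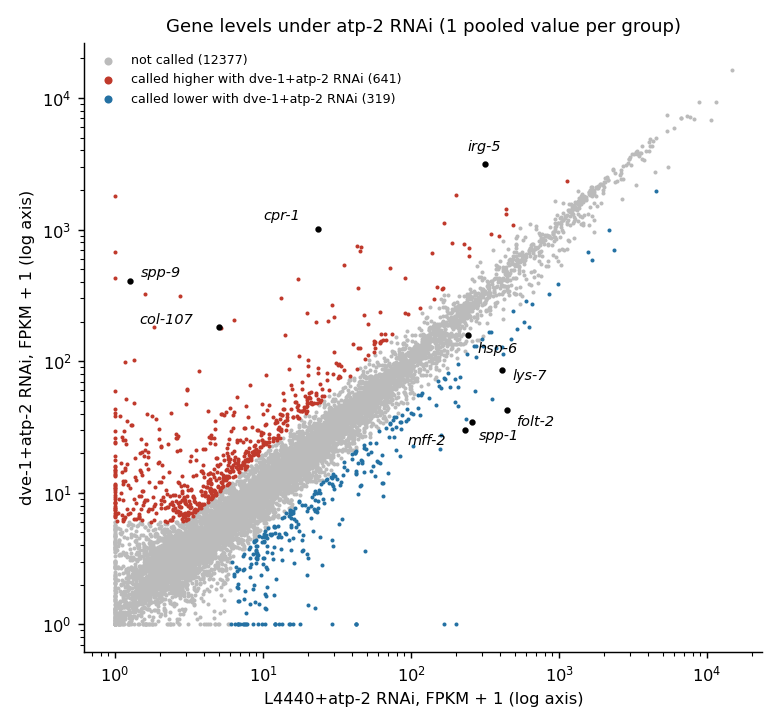
Level of each kept gene, as FPKM + 1 on log axes, with dve-1+atp-2 RNAi (vertical) and L4440+atp-2 RNAi (horizontal), each point being 1 gene and each column 1 pooled value. The 641 genes called higher lie above the band of uncalled genes and the 319 called lower lie below it, and hsp-6 at 158 FPKM, against 242, lies inside the band.

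None of the chaperone, protease or import genes of the UPRmt was called in stressed worms with dve-1 RNAi, although log2 ratios were below 0 for 5 of 5, 9 of 9 and 14 of 15 of them. All 5 mitochondrial chaperone genes lay below the median of all genes, with a median log2 ratio of -0.62 relative to it, and -0.23 relative to it without atp-2 RNAi. hsp-6 (WBGene00002010, chromosome V, 4824124 to 4826760), the mitochondrial Hsp70, was at 158 FPKM with dve-1+atp-2 RNAi, against 242 with L4440+atp-2 RNAi, a log2 ratio of -0.61. In worms without stress the same gene was at 105.8 FPKM with dve-1 RNAi, against 107.1 with L4440 RNAi. The difference was thus listed in the stressed pair and was near 0 in the unstressed one. hsp-60 (WBGene00002025, chromosome III, 1619742 to 1625803), the chaperonin, was at 35.0 FPKM with dve-1+atp-2 RNAi, against 49.3 with L4440+atp-2 RNAi, and at 19.1 with dve-1 RNAi, against 17.9 with L4440 RNAi. Y22D7AL.10, which resembles the Hsp10 lid of the chaperonin, was at 109 FPKM, against 171 in the stressed pair, and at 70.3, against 77.1 in the unstressed pair. dnj-10, a mitochondrial DnaJ protein, was at 22.7 FPKM, against 32.6, and at 16.108, against 15.67 without atp-2 RNAi. Among these genes trap-1, a mitochondrial Hsp90, differed least in the stressed pair, at 308 FPKM, against 335, a log2 ratio of -0.12. Its difference was larger without stress, where it was at 254.6 FPKM with dve-1 RNAi, against 364.5 with L4440 RNAi, a log2 ratio of -0.52.

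Proteases that clear mitochondrial proteins and the prohibitins followed the same direction with smaller ratios. All 9 had a ratio below 0, from -0.40 to -0.07, and their median was -0.43 relative to all genes. spg-7, a protease of the inner membrane, was at 22.9 FPKM with dve-1+atp-2 RNAi, against 30.5 with L4440+atp-2 RNAi, and at 14.6 with dve-1 RNAi, against 12.2 with L4440 RNAi. The prohibitin gene phb-1 was at 161 FPKM, against 209, and phb-2 at 86.3, against 112 in the stressed pair. Smallest were the ratios of the Lon protease gene lonp-1 (-0.12), the matrix protease gene clpp-1 (-0.08), ymel-1 (-0.07) and the processing peptidase gene immp-2 (-0.07). Without atp-2 RNAi the 9 genes had a median ratio of -0.04 relative to all genes, so that as a group they lay at the general level there.

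Of 15 genes for import into mitochondria 14 lay below the median of all genes, with a list median of -0.41 relative to it and none called, and a list median of -0.21 without atp-2 RNAi. timm-23, the channel of the inner membrane, was at 101 FPKM with dve-1+atp-2 RNAi, against 165 with L4440+atp-2 RNAi, a log2 ratio of -0.70. tomm-70, a receptor of the outer membrane, was at 24.1 FPKM, against 39.2, and tin-9.1, a small chaperone of the intermembrane space, at 34.9, against 59.0. Without atp-2 RNAi log2 ratios of the 15 genes ranged from -0.98 to 0.27, and those of timm-23, tomm-70 and tin-9.1 lay within 0.02 of 0. The lowest there was that of tin-9.2, another small chaperone of this kind, at 3.40 FPKM with dve-1 RNAi, against 7.69 with L4440 RNAi, while with stress it was at 5.83, against 7.99. timm-17B.2 was the one import gene above the general level, at 27.4 FPKM, against 20.3.

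Regulators of the UPRmt lay nearer to the general level, with a median of -0.18 relative to all genes over 12 members. Of these 1 was called lower, 8.33% beside 2.39% of all genes. This was zip-3 (WBGene00012330, chromosome II, 13951904 to 13957457), a bZIP protein known to restrain the ATFS-1 response. It was at 33.8 FPKM with dve-1+atp-2 RNAi, against 84.0 with L4440+atp-2 RNAi, log2 ratio -1.29, and at 37.4 with dve-1 RNAi, against 69.5 with L4440 RNAi. zip-3 overlaps sre-44 on the other strand, a gene below the level filter. atfs-1 itself was at 49.2 FPKM, against 71.0 with stress and at 54.2, against 67.4 without it. haf-1, an exporter of mitochondrial peptides, was at 1.57 FPKM with dve-1+atp-2 RNAi, against 3.45 with L4440+atp-2 RNAi. ubl-5, the partner of DVE-1, was at 44.1 FPKM, against 52.8. The histone methyltransferase gene met-2 (-0.13), its partner lin-65 (0.01) and the acetyltransferase gene cbp-1 (0.19) were not called. Neither were the demethylase genes jmjd-1.2 (0.23) and jmjd-3.1 (0.74), nor ulp-4 (0.61), whose SUMO protease acts on DVE-1. jmjd-3.1, at 2.52 FPKM, against 1.11, was below the 5 FPKM that a call required. No gene of the class I and II histone deacetylases (8 kept) or of the NuRD, MEC and SIN3 complexes (11 kept) was called, and hda-1 was at 25.1 FPKM, against 21.04.

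**Figure D2:**
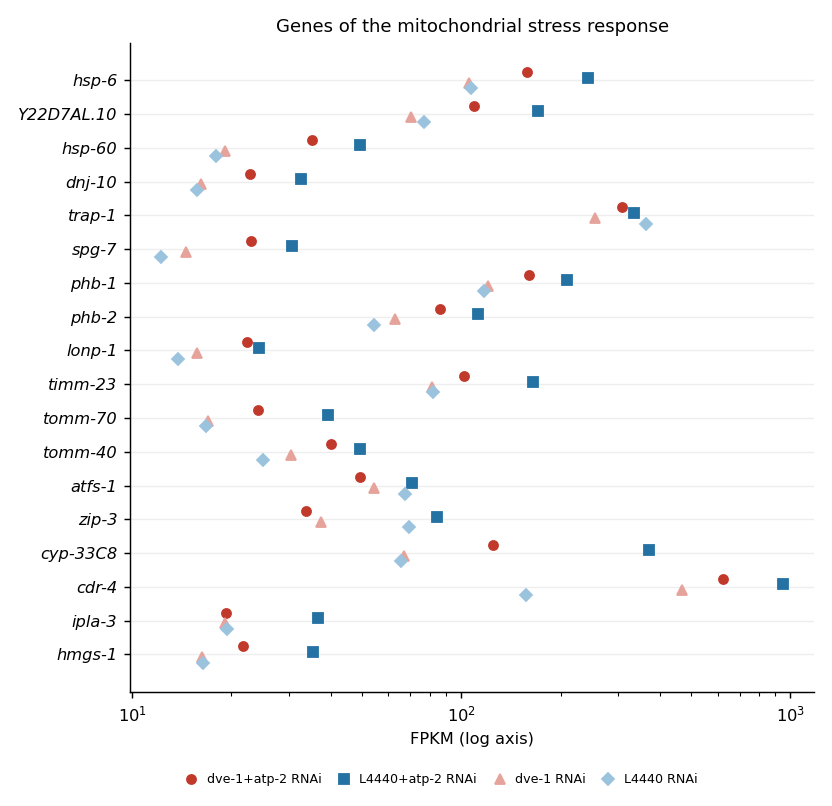
Levels in FPKM (log axis) of genes of the mitochondrial stress response in the 4 columns, each marker being 1 pooled value. For hsp-6 the dve-1+atp-2 value of 158 lies between the L4440+atp-2 value of 242 and the unstressed values of 105.8 and 107.1, and zip-3 is lower in both dve-1 columns.

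A list of 13 genes held those the study followed by qPCR under mitochondrial stress and hsp-60, and 3 of them were called lower. For hsp-60 the study describes a GFP reporter under this stress and lists qPCR primers. Apart from hsp-6 and hsp-60, which the study used as reporters, they were chosen on these samples, so their direction is not independent evidence. The share called lower was 23.1%, beside 2.39% of all genes, and the other 10 had ratios below 0 but were not called. For the genes it chose, the study reported by qPCR that dve-1 knockdown significantly reduced their induction. The 2-fold rule on pooled levels is another measure, so a gene without a call is not thereby shown to be independent of dve-1. cyp-33C8 (chromosome V), a cytochrome P450, was at 125 FPKM with dve-1+atp-2 RNAi, against 372 with L4440+atp-2 RNAi, and at 66.7 with dve-1 RNAi, against 65.3 with L4440 RNAi. M04C3.2 was at 2.203 FPKM, against 7.98, and djr-1.2, a glyoxalase of the DJ-1 family, at 2.21, against 7.20 in the stressed pair. Both are low levels, at which the pseudocount of 1 holds the ratio down, and with a pseudocount of 5 neither was called. ipla-3, a phospholipase gene, was at 19.3 FPKM with dve-1+atp-2 RNAi, against 36.6 with L4440+atp-2 RNAi, a log2 ratio of -0.89 that passed 2-fold under median-of-ratios scaling (-1.01). hmgs-1, the HMG-CoA synthase of the mevalonate pathway, was at 21.7 FPKM, against 35.4, and cdr-4, a cadmium-responsive gene, at 624, against 951. In unstressed worms cdr-4 lay the other way, at 467 FPKM with dve-1 RNAi, against 157 with L4440 RNAi, and was called higher there. The nuclear receptor gene nhr-115 (-0.85), the threonyl-tRNA synthetase gene tars-1 (-0.61), the copper pump gene cua-1 (-0.55) and the transporter gene pgp-1 (-0.45) were not called.

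In the other lists of mitochondrial genes hardly any members were called, and mitochondrial genes outside the lists were not counted. The 32 nuclear genes of complex I had log2 ratios from -0.18 to 0.11, and the 9 genes of the ATP synthase other than atp-2 had ratios from -0.05 to 0.16, with none called in either list. The mitochondrial ribosome (70 genes, median -0.20 relative to all genes), the genes carried by mitochondrial DNA (12 genes, -0.32) and those of the mevalonate and coenzyme Q pathways (14 genes, -0.32) lay lower but without a call. Of 28 genes of complexes II to IV and cytochrome c 1 was called higher, 3.57% beside 4.81% of all genes. This was the cytochrome c gene cyc-2.2, at 19.3 FPKM, against 7.48, which overlaps cubn-1 on the other strand. It was not called with a pseudocount of 5 (0.96). The clearest single difference among the listed genes of mitochondria was that of mff-2 (WBGene00018894, chromosome I, 5657917 to 5658712, reverse strand). It is a homologue of the mammalian factor that recruits the fission protein DRP1 to mitochondria. It was at 28.8 FPKM with dve-1+atp-2 RNAi, against 232 with L4440+atp-2 RNAi, 8.03 times as high in the control. Without atp-2 RNAi it was at 15.1 FPKM with dve-1 RNAi, against 15.6 with L4440 RNAi. Its neighbour wdr-12, which meets it at 1 base on the same strand and was looked up for that reason, was at 11.5 FPKM, against 24.04 in the stressed pair, and reads at their border cannot be told apart.

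Saposin-like proteins, lysozymes and C-type lectins had called members in both directions. These secreted proteins, made largely in the intestine, are part of worm innate immunity. Of 25 saposin-like genes 8 were called higher (32%, beside 4.81% of all genes) and 2 lower (8%, beside 2.39%). Their median was 0.68 relative to all genes. spp-9 (WBGene00004994, chromosome X, 11487784 to 11488203) was at 408 FPKM with dve-1+atp-2 RNAi, against 0.27 with L4440+atp-2 RNAi, and at 2266 with dve-1 RNAi, while it was listed at 0 with L4440 RNAi. spp-21, which lies close by at 11490130 to 11490494, was at 47.5 FPKM, against 0.34 with stress and at 157 with dve-1 RNAi, again listed at 0 with L4440 RNAi. spp-12 (chromosome V, 13889816 to 13890327) was at 321 FPKM, against 0.60, and at 960, against 0.67 without atp-2 RNAi. All 3 were thus near 0 in the control columns and lower with dve-1+atp-2 RNAi than with dve-1 RNAi alone. spp-4 was at 746 FPKM with dve-1+atp-2 RNAi, against 42.3 with L4440+atp-2 RNAi, and spp-28 at 52.8, against 5.70. In the other direction spp-1 (WBGene00004986, chromosome III, 10355098 to 10355668), which has antibacterial activity, was at 33.3 FPKM with dve-1+atp-2 RNAi, against 257 with L4440+atp-2 RNAi, and at 39.5, against 333 without atp-2 RNAi. It overlaps T07C4.3 on the other strand, and strandedness of the libraries is not stated in the sources used here. spp-23 was at 181 FPKM, against 628 with stress, and was called lower in the stressed pair alone, as it stood at 179, against 257 without stress.

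Lysozymes, which cut bacterial cell walls, were also called in both directions. Of 12 kept, 3 were called higher, 25% beside 4.81% of all genes, and 1 lower, 8.33% beside 2.39%. lys-6 (chromosome IV, 11626910 to 11627947) was at 97.3 FPKM with dve-1+atp-2 RNAi, against 0.16 with L4440+atp-2 RNAi. lys-4, at 11621429 to 11623174 on the same strand, was at 304 FPKM, against 12.1, and the invertebrate-type lysozyme gene ilys-5 at 1840, against 200.2. lys-7 was at 85.3 FPKM with dve-1+atp-2 RNAi, against 408 with L4440+atp-2 RNAi, and at 157 with dve-1 RNAi, against 979 with L4440 RNAi. lys-7 is a known defence gene that insulin signalling controls. Both abundant members, lys-1 (0.38) and lys-2 (-0.12), stayed within 2-fold.

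C-type lectins, secreted sugar-binding proteins, had 17 of 97 called higher and 7 lower, 17.5% and 7.22% beside 4.81% and 2.39% of all genes. clec-5 (chromosome III, 4881888 to 4883606) was at 177 FPKM with dve-1+atp-2 RNAi, against 4.16 with L4440+atp-2 RNAi. clec-45 was at 42.5 FPKM with dve-1+atp-2 RNAi and listed at 0 with L4440+atp-2 RNAi. clec-60, a lectin known from responses to bacterial infection, was at 24.03 FPKM, against 0.12, and clec-61 at 24.2, against 0.17. Without atp-2 RNAi clec-60 was at 103 FPKM with dve-1 RNAi, against 0.14 with L4440 RNAi, so that its level was higher still. Lower members were clec-47 (3.66 FPKM, against 23.2), clec-80 (2.62, against 17.4) and the abundant clec-65 (270, against 651).

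Of 27 immune genes of the irg and dod groups and others with CUB-like domains, 9 were called higher and 4 lower, 33.3% and 14.8% beside 4.81% and 2.39% of all genes. irg-5 (WBGene00009429, chromosome V, 13737010 to 13738474), a target of the p38 immune pathway, was at 3158 FPKM with dve-1+atp-2 RNAi, against 315 with L4440+atp-2 RNAi. It had the highest FPKM of all genes called higher, and was at 3373 FPKM with dve-1 RNAi, against 139.7 with L4440 RNAi. cld-1 was at 360 FPKM, against 42.6, and dod-22 at 64.7, against 7.20 in the stressed pair. dod-24 was at 35.7 FPKM with dve-1+atp-2 RNAi, against 234.7 with L4440+atp-2 RNAi. irg-1 (WBGene00015574, chromosome V, 3523587 to 3524679), which the study used as a reporter of infection, was at 3.37 FPKM, against 17.4, and at 1.46, against 12.62 without atp-2 RNAi. Of the 5 kept genes that the study followed by qPCR after infection, irg-1 alone was called lower, 20% beside 2.39% of all genes. pals-23 (-0.79), mul-1 (-0.66), lys-2 and irg-6 (0.45) were not called. irg-6, at 3.14 FPKM, against 2.03, was below the 5 FPKM that a call required. These worms were not infected. Antimicrobial peptides of the epidermis, of the cnc and nlp families, had 3 of 19 called higher, 15.8% beside 4.81% of all genes, and none lower. Their log2 ratios reached 1.36. The largest was that of cnc-4, at 159.6 FPKM with dve-1+atp-2 RNAi, against 61.6 with L4440+atp-2 RNAi.

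**Figure D3:**
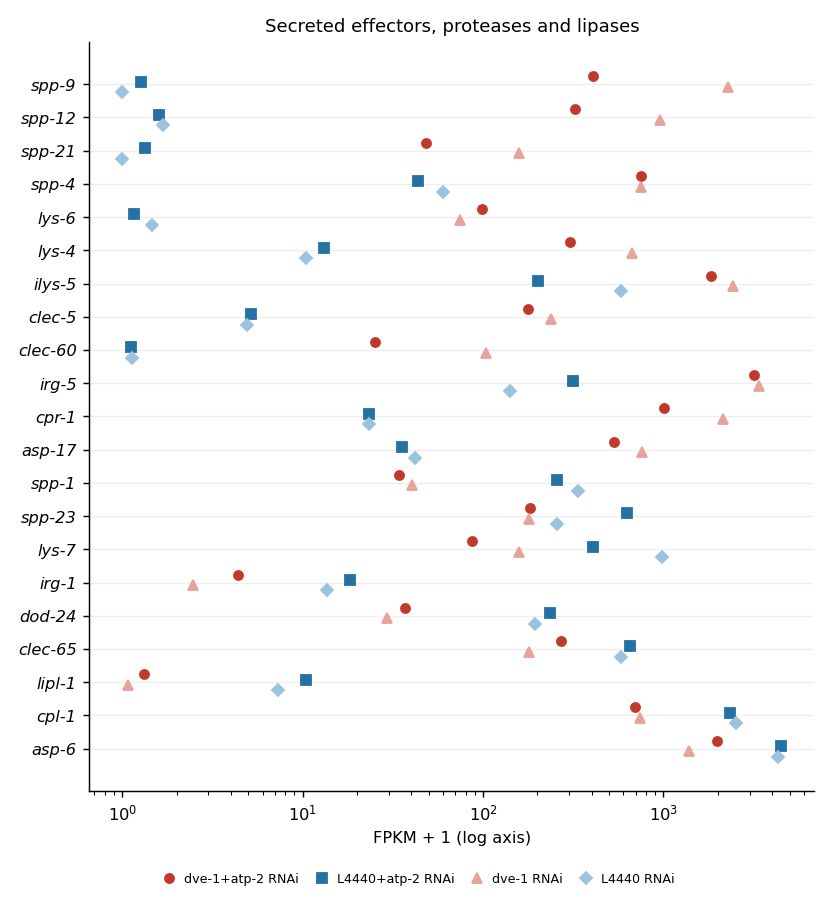
Levels of secreted effectors, proteases and lipases in the 4 columns, as FPKM + 1 on a log axis, each marker being 1 pooled value. From spp-9 to asp-17 both dve-1 columns lie above both L4440 columns, and from spp-1 to asp-6 both lie below them.

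Proteases and lipases of the gut and its lysosomes were called in both directions as well. Of 22 protease genes 4 were called higher and 6 lower, 18.2% and 27.3% beside 4.81% and 2.39% of all genes. cpr-1 (WBGene00000781, chromosome V, 11975551 to 11976756), a cathepsin B-like protease of the gut, was at 1008 FPKM with dve-1+atp-2 RNAi, against 22.4 with L4440+atp-2 RNAi, 45.0 times as high. The aspartyl protease genes asp-17 (534 FPKM, against 34.3) and asp-12 (201, against 26.6) and the cathepsin B-like cpr-3 (660, against 137) were higher too. Lower were cpl-1, the cathepsin L gene, at 698 FPKM with dve-1+atp-2 RNAi, against 2333 with L4440+atp-2 RNAi, and the abundant aspartyl protease gene asp-6, at 1977, against 4509. asp-8 was at 38.0 FPKM, against 113, and cpr-5, another cathepsin B-like gene, at 323, against 856 in the stressed pair. In unstressed worms asp-8 was at 14.2, against 14.4, and cpr-5 at 137, against 177, so that neither was called there. The summed level of the 22 genes was 21666 FPKM with dve-1+atp-2 RNAi and 23025 with L4440+atp-2 RNAi, which differ little. Of 7 lipases of the lysosome, enzymes that release fatty acids from stored fat, 2 were called lower, 28.6% beside 2.39% of all genes. None was called higher, and the member with the highest log2 ratio (1.13) was below 5 FPKM in both columns. lipl-1 was at 0.32 FPKM with dve-1+atp-2 RNAi, against 9.45 with L4440+atp-2 RNAi, and lipl-2 at 8.79, against 21.2, a call that was lost with a pseudocount of 5 (-0.93). lipl-5, the most abundant, was at 447 FPKM, against 750, short of 2-fold. The 6 vitellogenins, genes for the yolk proteins that the intestine secretes, had ratios from -0.85 to -0.30 with none called. vit-5 was at 3004 FPKM, against 5415, and vit-2 at 6814, against 10686.

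Genes of metabolism were called in small numbers. In the pathway that breaks down propionate when vitamin B12 is scarce, acdh-1 (WBGene00016943, chromosome I, 6497436 to 6499560), its first dehydrogenase, was at 385 FPKM with dve-1+atp-2 RNAi, against 984 with L4440+atp-2 RNAi. The later steps ech-6 (-0.99), hphd-1 (-0.73) and hach-1 (-0.63) fell short of 2-fold, and genes of the route that uses vitamin B12, such as mmcm-1 (0.06), pcca-1 (0.10) and pccb-1 (0.08), lay at the general level. nhr-68, a nuclear receptor known to control acdh-1, was at 20.6 FPKM, against 48.9, and was called lower. Without atp-2 RNAi acdh-1 was at 298 FPKM with dve-1 RNAi, against 1002 with L4440 RNAi, and nhr-68 at 15.7, against 40.3. Of 20 genes of fatty acid synthesis 2 were called higher, 10% beside 4.81% of all genes. fat-7, a stearoyl-CoA desaturase, was at 30.2 FPKM with dve-1+atp-2 RNAi, against 6.55 with L4440+atp-2 RNAi, and the elongase gene elo-4, which overlaps ufc-1 on the other strand, at 5.87, against 1.92, not called with a pseudocount of 5 (0.65). The related desaturase gene fat-6 did not differ by this measure, at 1133 FPKM, against 1136. folt-2 (WBGene00018138, chromosome V, 2872465 to 2875600), of the folate transporter family, was at 41.6 FPKM with dve-1+atp-2 RNAi, against 441 with L4440+atp-2 RNAi, 10.6 times as high in the control. In the unstressed pair folt-2 was at 28.7 FPKM, against 475. Glycolysis (18 kept) and the TCA and glyoxylate cycles (20 kept) had no called member.

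Of 8 metallothionein and cdr genes 1 was called lower and none higher, with log2 ratios from -1.68 to 0.92. mtl-2, a metallothionein of the intestine, was at 146 FPKM with dve-1+atp-2 RNAi, against 473 with L4440+atp-2 RNAi, and at 297, against 954 without atp-2 RNAi. Outside this list, chca-1 (chromosome IV, 9651394 to 9652480), known for copper uptake in the intestine, was at 50.3 FPKM with dve-1+atp-2 RNAi, against 351 with L4440+atp-2 RNAi. The copper chaperone gene cuc-1, singled out after its values were seen, was at 241 FPKM, against 488 with stress and at 160, against 162 without it. cua-1, the copper pump named above, was at 28.2 FPKM, against 41.6.

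Detoxification families modify and export foreign compounds. Among 64 cytochrome P450 genes 9 were called lower, 14.1% beside 2.39% of all genes, and 2 higher, 3.13% beside 4.81%. cyp-14A4 was at 18.3 FPKM with dve-1+atp-2 RNAi, against 62.5 with L4440+atp-2 RNAi, and at 1.23 with dve-1 RNAi, against 0.739 with L4440 RNAi. cyp-37B1 was at 2.43 FPKM, against 18.9, and cyp-32B1 at 5.36, against 32.9. Of these 9 genes 4 were also called lower without atp-2 RNAi, and cyp-14A4, cyp-33C8, cyp-14A1, cyp-13A12 and cyp-33E2 were not. The 2 higher genes were cyp-35A3, at 13.4 FPKM, against 1.33, and cyp-13B1, at 14.7, against 5.59, which was not called with a pseudocount of 5 (0.89). Among 42 glutathione S-transferases 5 were called in each direction, 11.9% beside 4.81% of all genes called higher and 2.39% called lower. gst-38 was at 10.8 FPKM with dve-1+atp-2 RNAi, against 63.5 with L4440+atp-2 RNAi, gst-13 was at 112, against 419, and gst-7 was at 127, against 410. gst-39 stood on the other side, at 1122 FPKM, against 165. Of 56 UDP-glucuronosyltransferases 5 were called lower, 8.93% beside 2.39% of all genes, and 2 higher, 3.57% beside 4.81%. Lower members were ugt-19 (26.5 FPKM, against 158) and the abundant ugt-62 (587, against 1676). Antioxidant enzymes (19 kept) had 1 call in each direction, 5.26% beside 4.81% of all genes called higher and 2.39% called lower. They were djr-1.2 and the secreted superoxide dismutase gene sod-4, which overlaps ctr-9 on the other strand. Neither was called with a pseudocount of 5, and sod-4 was not called under either scaling alternative (0.89 in both).

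Cuticle collagens were called in the higher direction alone. The kept list had 22 members called higher, which is 20.6% of it beside 4.81% of all genes, and its median was 0.20 relative to all genes. col-107 (chromosome IV, 1548721 to 1549714) was at 180 FPKM with dve-1+atp-2 RNAi, against 4.03 with L4440+atp-2 RNAi, and at 479.5, against 2.84 without atp-2 RNAi. It lies within C34H4.5 on the other strand, which was at 2.61 FPKM, against 1.79. dpy-5, dpy-17, sqt-3 and rol-8 are collagen genes whose mutants have an altered body shape. dpy-5 was at 25.3 FPKM with dve-1+atp-2 RNAi, against 1.58 with L4440+atp-2 RNAi, and rol-8 at 22.5, against 1.28. The summed level of all these collagens differed little, at 100709 FPKM with dve-1+atp-2 RNAi and 93201 with L4440+atp-2 RNAi. Among 45 hedgehog-related and patched-related genes, many of them active in the epidermis that makes the cuticle, 8 were called higher and 2 lower, 17.8% and 4.44% beside 4.81% and 2.39% of all genes. grl-15 was at 59.2 FPKM, against 2.06, wrt-1 was at 21.3, against 1.05, and grd-10 was at 91.6, against 19.1. In contrast, grd-4 (WBGene00001693, chromosome X, 8501222 to 8502288) was at 0.32 FPKM with dve-1+atp-2 RNAi, against 21.3 with L4440+atp-2 RNAi, the lowest log2 ratio among protein-coding genes with 300 nt of exon or more (-4.07). It was at 0.09 FPKM with dve-1 RNAi, against 19.1 with L4440 RNAi.

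Neuropeptide and insulin-like genes were called about as often as genes in general. Of 130 kept, 8 were called higher, 6.15% beside 4.81% of all genes, and 2 lower, 1.54% beside 2.39%. ins-35 was at 24.6 FPKM with dve-1+atp-2 RNAi, against 0.50 with L4440+atp-2 RNAi, and nlp-1 at 41.6, against 9.55. ins-7, an insulin-like peptide that activates the DAF-2 receptor, was at 12.604 FPKM, against 33.4, and was called lower. The pals genes, many of which respond to infection by microsporidia or virus, had 3 of 31 called higher and 1 lower, 9.68% and 3.23% beside 4.81% and 2.39% of all genes. pals-14 was at 12.7 FPKM with dve-1+atp-2 RNAi, against 2.54 with L4440+atp-2 RNAi, and pals-6 at 38.2, against 12.4. Without atp-2 RNAi this family stood out more, with 7 of 31 called higher, none lower and a median of 0.96 relative to all genes, and pals-14 was at 60.7 FPKM with dve-1 RNAi, against 0.25 with L4440 RNAi. With atp-2 RNAi its median was 0.00. The endoplasmic reticulum stress list had no called gene among 17, yet 13 of them lay above the median of all genes. Its largest ratio was that of the calreticulin gene crt-1, at 1023 FPKM, against 545, and hsp-4, the chaperone BiP, was at 114.7, against 86.2. Of 13 cytosolic heat shock genes hsp-17 was called lower, at 166 FPKM, against 347, a share of 7.69% beside 2.39% of all genes. The proteasome (33 kept), the cytosolic ribosome (80 kept) and the aminoacyl-tRNA synthetases (35 kept) had no call.

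**Figure D4:**
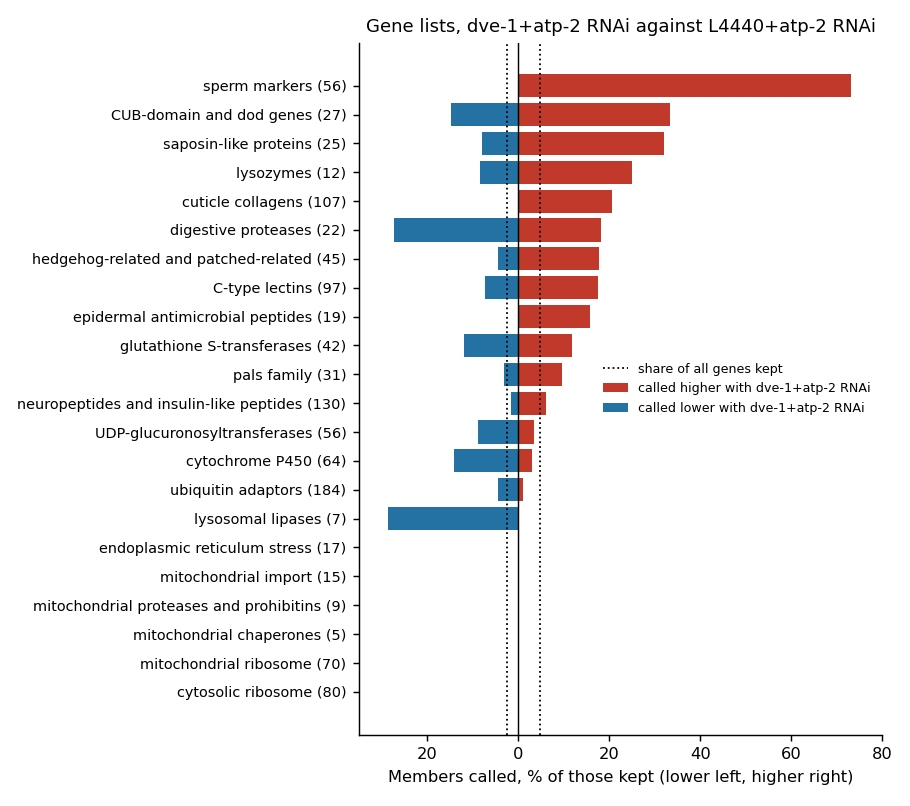
Share of the kept members of each gene list (number in brackets) called higher with dve-1+atp-2 RNAi (to the right) or lower (to the left), with dotted lines at 4.81% and 2.39%, the shares among all kept genes. Collagens and sperm markers have bars on the higher side alone, and the mitochondrial chaperone, protease and import lists have none.

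One list of cell type markers, that of sperm, was called in large part. Of 56 kept sperm markers 41 were called higher with dve-1+atp-2 RNAi, 73.2% beside 4.81% of all genes, and none lower. Without atp-2 RNAi 44 were called higher and 1 lower, where 7.08% and 2.23% of all genes were. In the unstressed pair their summed level was 2117 FPKM with dve-1 RNAi, against 548 with L4440 RNAi. Listed at 0 in the stressed pair were nspd-11 and nspe-2, in the L4440+atp-2 column. The major sperm protein gene msp-38 was at 30.5 FPKM, against 7.42, and msp-49 at 31.5, against 9.31. Members of this family are near-identical copies, so that uniquely mapping reads may place their levels unevenly. Without the sperm list 600 genes were called higher and 319 lower. The 21 female germ line markers were each at a ratio above 0 (0.06 to 0.74) with none called, and the 16 muscle markers had none called. Of 11 intestine markers mtl-2 and the glycosyltransferase gene gly-19 were called lower, 18.2% beside 2.39% of all genes. Of 16 neuron markers unc-13 was called higher (11.6 FPKM, against 4.35), 6.25% beside 4.81% of all genes. Of 6 epidermis markers grd-10 was called higher, 16.7% beside the same 4.81%. With a pseudocount of 5 neither unc-13 (0.83) nor gly-19 (-0.77) was called. The defining intestinal regulator elt-2 was at 15.4 FPKM, against 10.5, and the brush border actin gene act-5 at 486, against 570.

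The same RNAi in unstressed worms was the second comparison, and it shares no column with the first. With dve-1 RNAi 944 genes were called higher than with L4440 RNAi, 7.08% of those kept, and 298 lower, 2.23%. Of the genes called higher in stressed worms 516 were also called higher in unstressed worms, which is 80.5% of the 641 and 54.7% of the 944. Of those called lower 152 were shared, 47.6% of the 319 and 51.0% of the 298. Across all kept genes the log2 ratios of both comparisons had a Pearson r of 0.68, which is a description, as genes are not independent replicates and the columns share the strain, the clone and the processing. The 319 genes called lower in stressed worms had a median ratio of -0.96 in unstressed worms, and 262 of them were below 0 there. The 641 called higher had a median of 1.75 there, and 608 were above 0.

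**Figure D5:**
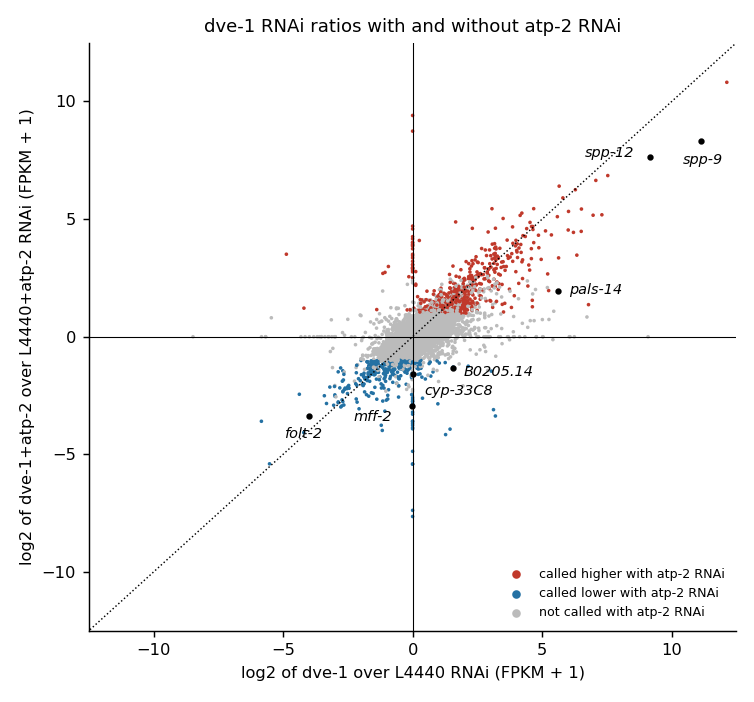
Log2 ratio of dve-1 RNAi over its control with atp-2 RNAi (vertical) and without it (horizontal) for each kept gene, coloured by the call with atp-2 RNAi, with the dotted line marking equal ratios. spp-9 and spp-12 lie at the upper right, folt-2 at the lower left, and mff-2 and cyp-33C8 lie below 0 on the vertical axis but near 0 on the horizontal one.

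In stressed worms alone 120 genes were called higher and 160 lower, and the difference between both comparisons was not tested for any of them. This concerns the calls, and many of these genes moved the same way without stress. There gst-31 passed 2-fold (log2 ratio 1.25) but stayed below 5 FPKM, and spp-2 (0.93) and nhr-193 (-0.96) fell just short of 2-fold. Lower members called with stress alone that had hardly any difference in unstressed worms were mff-2, cyp-33C8, asp-8 and cyp-14A4. F22B3.7 (chromosome IV, 11417581 to 11421796) was at 0.40 FPKM with dve-1+atp-2 RNAi, against 19.2 with L4440+atp-2 RNAi, and was listed at 0 in both unstressed columns. C54F6.18 was at 2.62 FPKM, against 48.1 with stress and at 1.39, against 4.52 without it, and srr-6, of a chemoreceptor-like family, at 1.81, against 24.1 and at 1.47, against 4.19. The log2 ratios of C54F6.18 and srr-6 without stress were -1.21 and -1.07. Both missed a call there only because they stayed below 5 FPKM. For F22B3.7, C54F6.18 and srr-6 the L4440+atp-2 column stood above the other 3. Higher members were spp-2 (727 FPKM, against 244), irg-3 (80.6, against 22.3) and clec-218 (36.5, against 6.96). spp-2 was at 601 FPKM with dve-1 RNAi, against 314 with L4440 RNAi, and clec-218 was at 15.9, against 14.5.

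Further genes of large ratio had no annotated role that could be stated here. idpa-1 (chromosome III, 2899371 to 2901217) was at 314 FPKM with dve-1+atp-2 RNAi, against 1.73 with L4440+atp-2 RNAi, and idpa-3 was at 182, against 0.83, where it lies within cut-5 on the other strand, itself at 1.29, against 0.25. B0348.2 was at 101 FPKM, against 0.35, and K02E10.4 at 50.7, against 0.19. Y37A1B.7 was at 58.8 FPKM and listed at 0 with L4440+atp-2 RNAi. All 5 were near 0 in the unstressed L4440 column as well. Y41C4A.11 was at 421 FPKM with dve-1+atp-2 RNAi, against 16.24 with L4440+atp-2 RNAi, and E04D5.4 at 207, against 5.36. Among the lower genes Y52E8A.3, which overlaps gtf-2F1 on the other strand, was at 2.98 FPKM, against 28.7, W02D7.5 at 0.66, against 10.9, and nspg-8 at 8.49, against 63.2.

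Called genes that sit side by side on a chromosome, with no uncalled kept gene between them, formed 7 runs of 3 in the higher and 3 runs of 3 in the lower direction. The run on chromosome V from 19437899 to 19450950 held M04C3.1 (5.39 FPKM, against 20.1), M04C3.2 and M04C3.5 (3.84, against 10.6). The study followed the second of these by qPCR, and neither it nor M04C3.5 was called with a pseudocount of 5. A run from 10393881 to 10401307 on the same chromosome held AC3.14, ugt-1 (6.17, against 22.04) and ugt-2 (16.9, against 45.0), none of them called without atp-2 RNAi. clec-51 (19.8 FPKM, against 8.45), B0218.7 and clec-52 (197, against 21.7) formed a run of higher genes on chromosome IV from 8161953 to 8168760. By chromosome, 4.22% of the kept genes of chromosome V were called lower, while the other nuclear chromosomes had between 1.67% and 2.32%. Calls in the higher direction ranged from 3.36% on chromosome III to 6.83% on chromosome IV.

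The columns labelled hda-1 RNAi offer values beside these, with the limit that hda-1 itself was listed at 811 FPKM with hda-1+atp-2 RNAi, against 21.04 with L4440+atp-2 RNAi, above its control. Both comparisons share the L4440+atp-2 column, so only levels are given. In the column labelled hda-1+atp-2 RNAi hsp-6 was at 142 FPKM, cyp-33C8 at 126 and mff-2 at 25.2, on the same side of the L4440+atp-2 level as the dve-1+atp-2 values. spp-9 was at 1.71 FPKM and lys-6 at 2.99 there, far below their dve-1+atp-2 levels, while cpr-1 was at 1552.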

How the data were processed

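Messenger RNA of whole worms was sequenced on a HiSeq2500, per the labels. Reads were aligned to ce11 with TopHat2 2.1.1, those with a unique position were retained, and Cufflinks turned them into the FPKM that the authors deposited, 1 value per gene and group with both libraries of a group pooled, and no column was left unassigned. Whether the libraries of a group were separate cultures, and their strandedness, are not given in the sources used here.

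Values were used as deposited. Of 46245 genes 45990 matched Ensembl release 115 (WBcel235, the ce11 assembly) by identifier. Genes with a mean FPKM of 1 or more over the 6 columns were kept. Ratios are log2 of (FPKM + 1), which understates changes of low genes, and calls need 2-fold and 5 FPKM in the higher column. With 1 value per group no test, SD or interval between replicates could be had. Depth was estimated from steps between low values in genes whose exons span 1000 to 1500 nt and covers counting error only. The call rule was tested on simulated data that had counting error alone and planted changes larger than 2-fold in genes above 5 FPKM. That test does not cover calls near these limits or spread between cultures. Python 3.11.15, numpy 2.4.6, pandas 2.3.3 and matplotlib 3.10.9 were used.

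Genes that could be named were the RNAi targets, the UPRmt lists, the genes followed by qPCR and the 20 protein-coding genes (300 nt of exon or more) of largest ratio in each direction. Up to 5 called members of each of 58 lists in each direction, and their neighbours in runs, were added. Not all of these genes and lists are described above, so absence from the text does not mean a small ratio or no call. Members and lists were chosen with earlier results of these data known. A few further list members are named that were chosen after their values were seen. Alternatives were other pseudocounts, filters and scalings. Promoter motifs were not analysed here.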

Additional observations from a re-analysis of the deposited data

Results flagged for a closer look

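Among protein-coding genes with 300 nt of exon or more, 4 were called in opposite directions with and without atp-2 RNAi, and the difference was not tested. B0205.14 had a log2 ratio of -1.34 in stressed worms, at 106 FPKM with dve-1+atp-2 RNAi, against 271 with L4440+atp-2 RNAi, and was at 10.2 with dve-1 RNAi, against 2.84 with L4440 RNAi. scl-20, of a family of secreted proteins, had a log2 ratio of -1.099 at 11.4 FPKM, against 25.6 in the stressed pair, and was at 84.5, against 34.7 in the unstressed pair. C49H3.12 had a log2 ratio of 2.69 at 39.8 FPKM, against 5.31 with stress, and was at 12.2, against 28.3 without it. C34C12.12 had a ratio of 2.74 on the log2(FPKM + 1) scale at 5.66 FPKM with dve-1+atp-2 RNAi, was listed at 0 with L4440+atp-2 RNAi, and was at 5.13 with dve-1 RNAi, against 11.8 with L4440 RNAi.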

How the results depend on the processing

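No paired analysis was possible because each group has 1 pooled column, and for the same reason no replicate could be left out. A pseudocount of 5 moved the counts to 403 higher and 205 lower. Under every other alternative run both counts stayed within 1.5 times the reported 641 and 319, with a range of 478 to 918 higher and 256 to 395 lower. Median-of-ratios and upper-quartile scaling took the median of all genes to 0.00, with 560 higher under both, and 380 and 383 lower. Leaving out the sperm list, an alternative chosen after seeing the data, gave 600 higher and 319 lower. Of the 221 genes that could be named none changed direction while called, and 32 gained or lost a call under at least 1 setting. Of these 31 did so with a pseudocount of 5, where low levels are damped by construction. Of 1044 counts of list members 56 moved by more than 1.5 times, and 9 of 522 list medians moved. At 5 FPKM on 1 kb, counting error was near 10.6%, and the spread between cultures is unknown.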
